A study of Rattus norvegicus with 16 samples.

Results

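The collagen genes were followed across 16 microarrays of rat dorsal root ganglia (DRG) of the L4/L5 level. All Affy_IDs (the probe sets of the Affymetrix rat array) with a single gene symbol made of Col, a number, the letter a and a number were taken. There were 58 such Affy_IDs for 41 genes, of 14217 genes with a single symbol. Where a gene had several Affy_IDs, as 14 of the 41 did, the one brightest on average stood for it. Values were log2 GC-RMA intensities, and 34 of the 41 genes exceeded a log2 of 4 on 2 arrays or more. The other 7 (Col4a4, Col7a1, Col13a1, Col17a1, Col19a1, Col20a1 and Col27a1) stayed between 2.05 and 3.88 in every array. They are counted with the rest, but a gene at the bottom of the scale cannot show a decrease.

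DRG were collected 7 days after surgery from Sprague-Dawley rats in 6 groups. In spared nerve injury (SNI) branches of the sciatic nerve are cut while another is left intact, and in sham surgery the nerve is exposed only. Adult rats were males aged 2 months, and young rats were operated on at 10 days of age, so that their ganglia were taken at 17 days. Adult sham, adult contralateral (the uninjured side of SNI rats) and adult SNI (the injured side) had 3 arrays each, young sham had 3, and young contralateral and young SNI had 2 each. An array held RNA pooled from 3 adult rats (6 DRG) or 4 young rats (8 DRG), so the replicate is a pool and the spread is between pools.

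Collagens are the main structural proteins of the extracellular matrix. Fibrillar collagens (types I, II, III, V, XI, XXIV and XXVII) form or regulate the banded fibrils of connective tissue, type IV forms the network of basement membranes, and type VI forms beaded filaments between cells and fibrils. FACIT collagens (types IX, XII, XIV, XVI, XIX, XX and XXII) sit on the surface of fibrils or near basement membranes. In peripheral nerve, fibroblasts of the epineurium and endoneurium make much of the fibrillar collagen, and Schwann cells make basement membrane and type V collagens.

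Several collagen genes are neighbours in the genome, among them the pairs Col4a1 and Col4a2, Col6a1 and Col6a2, and Col3a1 and Col5a2. Col4a1 and Col4a2 lie head to head on chromosome 16, and the stretch between their start sites is shown because both genes were lower in adults. The bases before the start of Col11a2, on chromosome 20, are shown because it was the 1 collagen gene that differed between injured and control ganglia of young rats. Both are from RefSeq (build GRCr8), written 5′ to 3′, and capitals mark GGGCGG, the letters of a GC box, on either strand. The first is on the plus strand at chr16:84885521-84885596, and the second on the minus strand at chr20:4817649-4817768, ending at the base before the start site.

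Col4a1-Col4a2: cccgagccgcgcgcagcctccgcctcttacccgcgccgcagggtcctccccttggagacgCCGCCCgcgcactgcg
Col11a2: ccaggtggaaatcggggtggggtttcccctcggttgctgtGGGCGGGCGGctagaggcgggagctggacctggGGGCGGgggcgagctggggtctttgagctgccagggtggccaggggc

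The letters GGGCGG were found on either strand in the 250 bases before the start of 18 of the 32 collagen genes with a promoter in the RefSeq table (56.2%), and of 32.4% of all 27457 promoters. TATAAA was found in 4 of the 32 (12.5%, against 13.1% of all), among them Col1a2 and Col10a1. CCAAT was found in 9 (28.1%, against 34.3%), among them Col1a2, Col4a1 and Col4a2.

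Some libraries stood apart, and groups are named here by their labels. Young SNI replicate 1 carried bone genes: Dmp1, a matrix protein of bone cells, had 7.87 there and at most 2.40 in the other arrays. Young SNI replicate 2 carried genes of central nervous tissue, with a mean of 10.41 over 8 such genes against 2.27 to 2.88 elsewhere. In genes of neuronal injury the young arrays did not follow their labels. Atf3, a transcription factor of injured sensory neurons, had 11.60 to 11.81 in adult SNI and 5.70 to 7.27 in adult controls. In young rats it had 9.49, 11.00 and 7.75 in sham, 9.06 and 4.87 in contralateral, and 7.77 and 10.17 in SNI arrays. Xist, the RNA of the inactive X chromosome, was high in 5 of 7 young pools and low in young sham replicate 2 and young contralateral replicate 1. The defining markers of DRG were present: the mean of 7 sensory neuron genes was 11.70 to 12.45 in all arrays but young SNI replicate 2 (10.37).

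**Figure D1:**
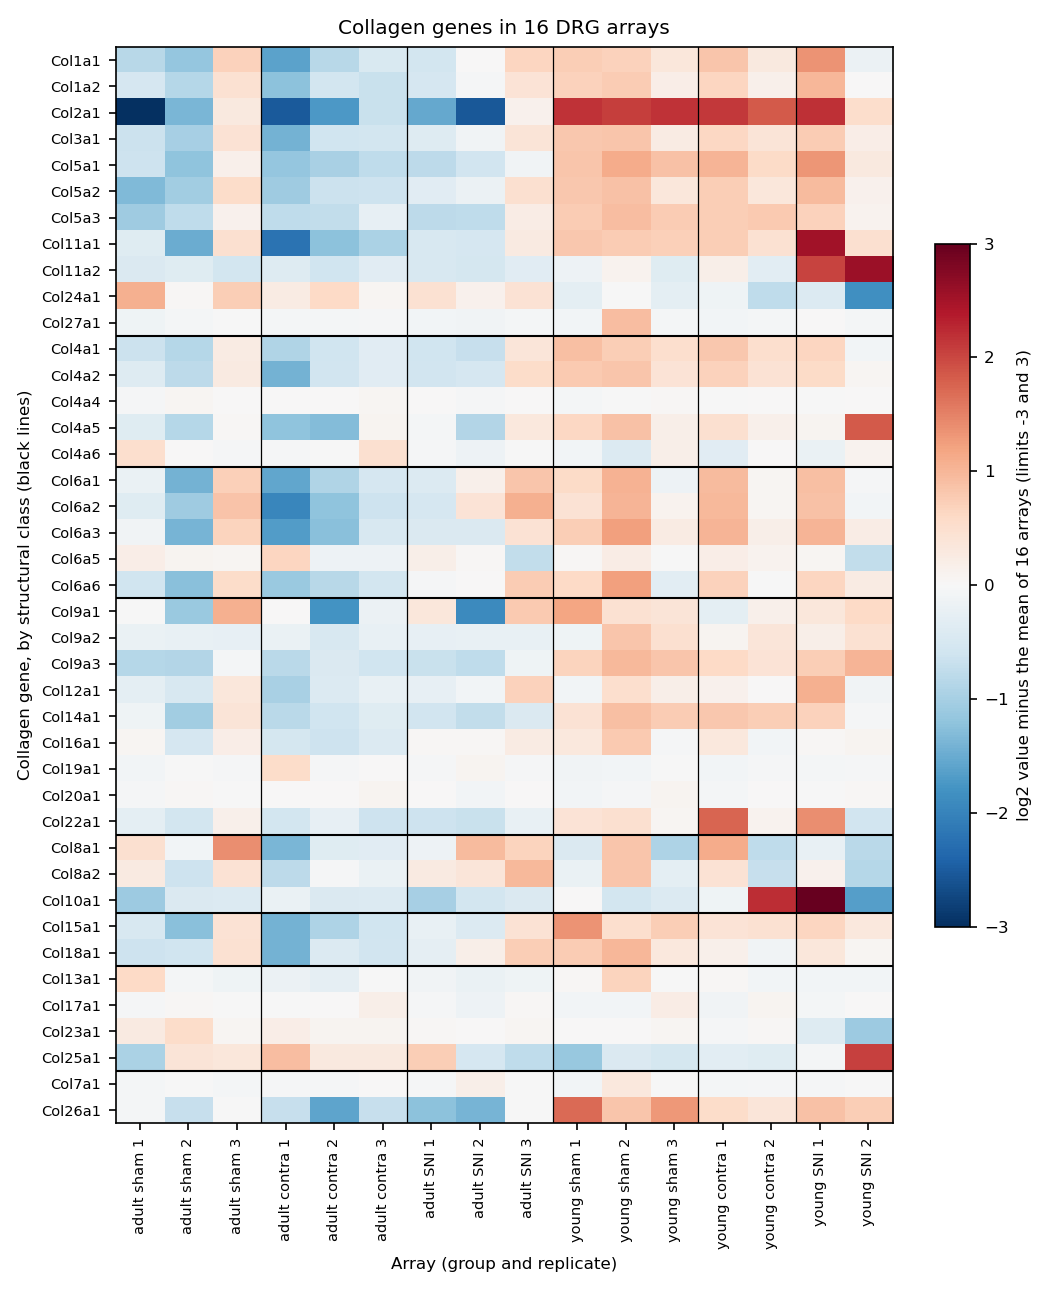
Heat map of the 41 collagen genes (rows, grouped by structural class between black lines) in the 16 arrays (columns, by group and replicate). Colour is the log2 GC-RMA value minus the mean of the gene over all arrays, with limits at -3 and 3. Most fibrillar, type IV and type VI genes are mainly blue in adult arrays and mainly red in young arrays, with exceptions in single arrays, as for type VI. Adult replicate 3 arrays are mostly redder than the other adult arrays, and Col11a2 is red in the 2 young SNI arrays.

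Comparing control ganglia of adult and young rats (arrays labelled sham or contralateral, 6 adult against 5 young) addressed postnatal age. The mean of 8 neuronal injury genes was 5.41 to 6.94 in these adult arrays and 5.47 to 11.11 in the young ones, where adult SNI had 11.13 to 11.53. Of the 41 collagen genes 12 differed at an adjusted p under 0.05 in limma, and all 12 were lower in adults. Of all 31042 Affy_IDs tested, 4.36% differed and 2.54% were lower in adults. At an unadjusted p under 0.05 there were 25 collagen genes, 24 of them lower in adults, where 17.8% of all Affy_IDs had such a p. The 12 were the fibrillar genes Col2a1, Col3a1, Col5a1, Col5a2 and Col5a3, the basement membrane genes Col4a1 and Col4a2, the FACIT genes Col9a2, Col9a3 and Col14a1, the multiplexin Col15a1, and Col26a1. Over the 41 genes the median difference of adult from young was -0.88 on the log2 scale, against 0.03 over all Affy_IDs, and 33 were below 0. In RNA from whole ganglia, fewer cells of a type and less RNA per cell cannot be told apart.

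Among the type V collagens, which set the diameter of collagen fibrils, all 3 genes were lower in adults. Col5a1 had 9.46, 8.86 and 10.22 in adult sham and 8.91, 9.10 and 9.32 in adult contralateral arrays. It had 10.90, 11.20 and 10.96 in young sham and 11.10 and 10.66 in young contralateral arrays. Every adult control lay below every young control, and the log2 difference was -1.64 (SE 0.26, adjusted p = 0.0073). The same held for Col5a3, with 10.04 to 11.23 in adult controls and 11.83 to 12.02 in young controls (log2 difference -1.36, SE 0.24, adjusted p = 0.013). The groups overlapped for Col5a2, whose adult controls ran from 10.66 to 12.54 and whose young controls ran from 12.32 to 12.87 (log2 difference -1.30, SE 0.33, adjusted p = 0.0484). The second Affy_IDs of Col5a1 and Col5a2 also passed, with log2 differences of -1.42 and -1.37.

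Col2a1, the type II collagen best known from cartilage, had the greatest difference among the 41 genes. Its values were 7.25, 9.09 and 10.75 in adult sham and 7.94, 8.74 and 9.79 in adult contralateral arrays. In young rats they were 12.61, 12.53 and 12.61 in sham and 12.57 and 12.30 in contralateral arrays. The adult arrays spread widely without reaching the young ones, and the log2 difference was -3.58 (SE 0.66, adjusted p = 0.0146). The Affy_IDs of this gene were unequal: the other 2 were between 2.36 and 3.46 in adult controls and between 3.07 and 5.11 in young controls. Their log2 differences were -1.37 (adjusted p = 0.0742) and -0.79 (adjusted p = 0.0626). Cartilage markers were uneven over the 16 arrays, and their part in this difference was not tested. Cnmd (chondromodulin) had 10.94 to 13.47, the link protein gene Hapln1 5.59 to 7.92 and Comp 4.83 to 7.46, while Acan and Matn1 were at the bottom of the scale, at 2.37 to 2.67 and 2.08 to 2.24.

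The type IX genes, whose products coat type II fibrils, were split. Col9a3 had 8.35, 8.32 and 9.14 in adult sham and 8.40, 8.78 and 8.62 in adult contralateral arrays. It had 9.87, 10.17 and 10.04 in young sham and 9.80 and 9.61 in young contralateral arrays. With no overlap, it had the smallest adjusted p of the collagens (log2 difference -1.26, SE 0.17, adjusted p = 0.00332). Col9a2 was lower by a smaller amount, with 6.81 to 7.08 in adult and 7.15 to 8.11 in young controls (log2 difference -0.57, SE 0.14, adjusted p = 0.0479). It passed in 5 of 9 other settings of the fit, not with the replicate number as a block, and in 3 of 16 fits with 1 array left out. Col9a1 spread widely within adults (5.43 to 8.30 in controls) and did not pass (log2 difference -0.64, SE 0.55, adjusted p = 0.562).

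**Figure D2:**
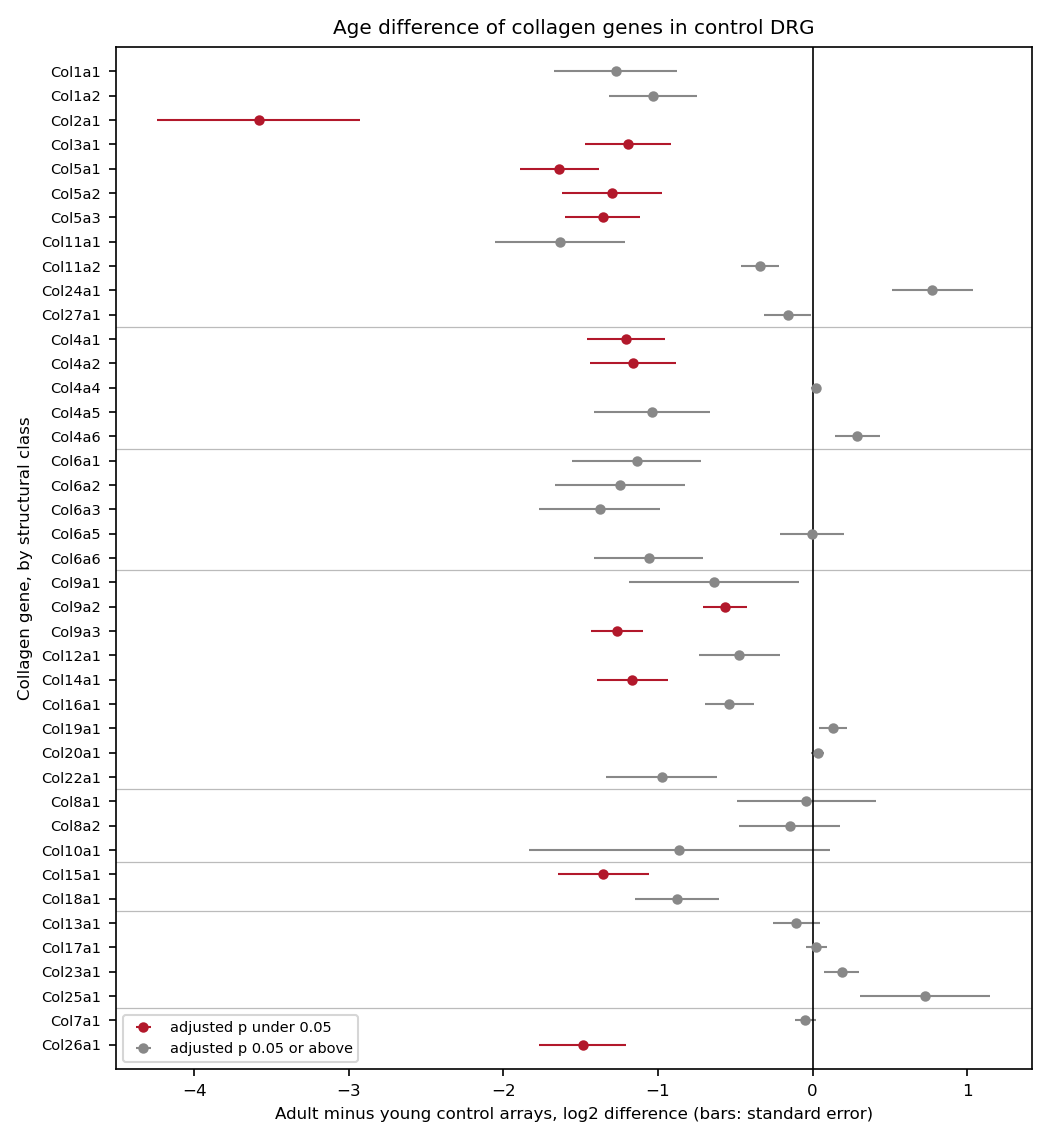
Difference between adult and young control arrays for the 41 collagen genes (rows, grouped by structural class between grey lines), on the log2 scale (horizontal axis), with the standard error as bars. The 12 genes with an adjusted p under 0.05 are red and all lie left of 0, with Col2a1 farthest left at -3.58; Col24a1 at 0.77 lies farthest right and is grey.

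The genes of the most common fibrils, types I and III, had similar differences with unequal outcomes of the test. Col3a1 was lower in adults, with 12.24 to 14.09 in adult and 13.90 to 14.50 in young controls (log2 difference -1.20, SE 0.28, adjusted p = 0.0365). Adult sham replicate 3, at 14.09, was the adult array that overlapped. Col1a1 (log2 difference -1.27, SE 0.40, adjusted p = 0.103) and Col1a2 (log2 difference -1.03, SE 0.28, adjusted p = 0.0683) did not pass. Both had their highest adult control value in adult sham replicate 3, at 13.42 and 13.63. Col11a1, which joins type II and type V chains in fibrils, was near the threshold (log2 difference -1.64, SE 0.42, adjusted p = 0.0529). Its other Affy_IDs were not, with log2 differences of -0.97 (adjusted p = 0.351) and 0.09 (adjusted p = 0.634). Col11a2 had 2.37 to 2.64 in adult and 2.61 to 3.14 in young controls (adjusted p = 0.163).

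Basement membrane genes divided by chain. Col4a1 had 9.91 to 11.06 in adult and 11.32 to 11.73 in young controls (log2 difference -1.21, SE 0.25, adjusted p = 0.0253). Col4a2 had 8.94 to 10.64 and 10.78 to 11.19 (log2 difference -1.16, SE 0.28, adjusted p = 0.0396). These encode the chains common to all basement membranes, and neither pair of groups overlapped. Col4a5, a chain of kidney and other specialised basement membranes, also had no overlap but did not pass (log2 difference -1.04, SE 0.38, adjusted p = 0.159). Col4a6 had 0.29 (adjusted p = 0.344) and Col4a4 was at the bottom of the scale.

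Multiplexins carry an endostatin-like domain and lie at basement membranes. Col15a1 was lower in adults (9.50 to 11.34 against 11.33 to 12.26, log2 difference -1.35, SE 0.30, adjusted p = 0.029), and its second Affy_ID passed as well (log2 difference -1.56). Col18a1 did not pass (log2 difference -0.88, SE 0.27, adjusted p = 0.0992). Of the other FACIT genes, Col14a1 was lower in adults, with 9.19 to 10.62 against 10.66 to 11.14 (log2 difference -1.17, SE 0.23, adjusted p = 0.0199). Col16a1 had -0.54 (adjusted p = 0.0881) and Col12a1 -0.47 (adjusted p = 0.383). Col26a1 was lower in adults, with 2.06 to 3.64 against 4.00 to 5.33 (log2 difference -1.49, SE 0.28, adjusted p = 0.0165). Its adult values lay near the bottom of the scale, where the size of a difference is not exact.

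In the beaded filament class 0 of 5 genes passed in limma, although 4 had an unadjusted p under 0.05. Col6a1, Col6a2, Col6a3 and Col6a6 had log2 differences of -1.14, -1.25, -1.38 and -1.06, with adjusted p of 0.167, 0.129, 0.0766 and 0.125. These differences are as large as those of types III and IV, with standard errors of 0.35 to 0.42. Col6a5 had a log2 difference of 0.00 (SE 0.21, adjusted p = 0.991). Short-chain collagens (Col8a1, Col8a2 and Col10a1) and transmembrane collagens (Col13a1, Col17a1, Col23a1 and Col25a1) had 0 genes past the threshold and 0 at an unadjusted p under 0.05.

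Col24a1, a fibrillar collagen known from developing bone, went the other way. It had 7.24, 6.22 and 6.91 in adult sham and 6.42, 6.77 and 6.24 in adult contralateral arrays. The young controls had 5.89, 6.16 and 5.90 in sham and 6.06 and 5.41 in contralateral arrays, all below the adult values. The log2 difference of 0.77 did not pass (SE 0.26, adjusted p = 0.128).

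**Figure D3:**
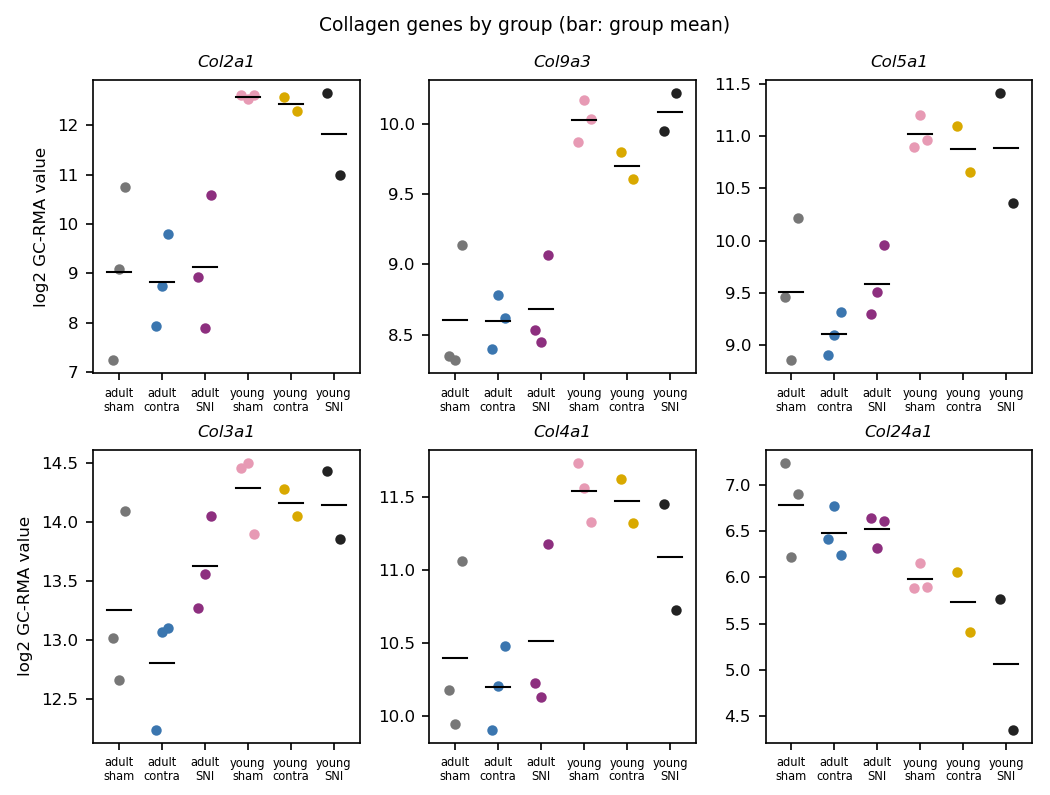
Log2 GC-RMA values (vertical axes, which do not start at 0) of 6 collagen genes in each array by group (horizontal axes); each point is 1 array and each bar a group mean. Col2a1, Col9a3 and Col5a1 lie lower in all 9 adult arrays than in all 7 young arrays, Col3a1 and Col4a1 overlap in part, and Col24a1 lies higher in all 9 adult arrays.

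Control arrays did not overlap between ages for 11 genes, 10 lower in adults and Col24a1 higher. Over all Affy_IDs 3.05% were lower and 3.54% higher without overlap. When the SNI arrays were added, Col2a1, Col5a1, Col9a2, Col9a3 and Col26a1 were still lower and Col24a1 still higher in each of the 9 adult arrays than in each of the 7 young arrays. In the injured ganglia alone, 3 collagen genes differed between adult and young SNI (2.64% of all Affy_IDs): Col9a3 (log2 difference -1.40, adjusted p = 0.0193) and Col11a2 were lower in adults, and Col23a1 higher. Col5a1 had -1.29 there (adjusted p = 0.0972).

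The number of calls depended on the arrays. It was 2 (Col5a1 and Col9a3) without young contralateral replicate 1, 5 to 7 without adult contralateral replicate 1 or 2, adult sham replicate 1 or 2, young sham replicate 1 or young contralateral replicate 2, and 8 without adult SNI replicate 2 or young sham replicate 2 or 3. It was 17 without adult sham replicate 3 and 15 without both young SNI arrays. In the 16 fits with 1 array left out, Col5a1 and Col9a3 passed in all 16. Col3a1 and Col4a2 passed in 6 of them, and Col5a2 and Col9a2 in 3. The share of all Affy_IDs that passed in refits with arrays left out is not reported here. These counts therefore do not show a change particular to collagens. With the 3 young controls highest in injury genes left out (young sham replicates 1 and 2, young contralateral replicate 1), 1 of the 12 passed, Col9a2, with log2 differences of the 12 between -3.53 and -0.68. In sham arrays alone 1 gene passed (Col9a3; 0.622% of all Affy_IDs), and in contralateral arrays alone 0 passed in limma (0.177%). Col5a1 and Col9a3 had log2 differences of -1.51 and -1.42 in sham and -1.77 and -1.11 in contralateral arrays.

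Other genes moved with age as well, and their part in the difference was not tested. Of 10 fibroblast markers 0 passed (median log2 difference -0.25, 3 at an unadjusted p under 0.05), and their mean was 8.11 to 9.46 in adult and 8.33 to 9.39 in young controls. Of 5 Schwann cell markers 1 was lower in adults, Egr2, and all 5 had an unadjusted p under 0.05; their mean was 11.72 to 12.62 in adult and 12.51 to 13.14 in young controls. Of 7 markers of cycling cells 2 were lower in adults, and their mean was 3.64 to 4.83 against 4.54 to 4.84. Of 11 cartilage and bone markers 1 was lower, the bone sialoprotein gene Ibsp (log2 difference -3.21, adjusted p = 0.031), and their mean was 4.17 to 4.88 against 4.72 to 5.02.

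Of 8 neuronal injury markers 2 were lower in adult controls, Reg3b (log2 difference -3.93, adjusted p = 0.012) and Gap43 (log2 difference -0.82, adjusted p = 0.0053), and 6 had an unadjusted p under 0.05. Of 8 macrophage markers 1 was lower, Mrc1 (log2 difference -1.48, adjusted p = 0.024), with a mean of 5.43 to 6.86 in adult and 4.98 to 7.27 in young controls. Of 6 endothelium markers 1 was lower, Tie1 (log2 difference -0.60, adjusted p = 0.011), with a mean of 7.08 to 8.08 against 7.31 to 7.73. Of 7 skeletal muscle markers 0 passed in limma and 1 had an unadjusted p under 0.05, with a median log2 difference of -2.26 and a mean of 5.10 to 12.48 in adult and 8.57 to 13.49 in young controls. Sex differed with age as well, since the adults were males and the young pools were mixed by Xist, and its part was not tested. Without the 3 young controls highest in injury genes, young sham replicate 3 and young contralateral replicate 2 remained. Both were high in Xist (9.77 and 11.51), so that age and sex cannot be told apart there.

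Of 26 measured genes for collagen synthesis and crosslinking 2 were lower in adults: Bmp1, the protease that removes procollagen C-propeptides (log2 difference -0.85, adjusted p = 0.045), and Fkbp10, a chaperone of procollagen (log2 difference -1.22, adjusted p = 0.038). Another 11 of the 26 had an unadjusted p under 0.05, so that 13 had one in all, 11 lower and 2 higher in adults, where 4.36% of all Affy_IDs passed and 17.8% had such an unadjusted p. The median over the 26 genes was -0.32. Of 6 collagen receptors and 7 small proteoglycans that bind fibrils, 0 passed in limma, with 1 of each at an unadjusted p under 0.05.

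Adult replicates differed among themselves. Of the 34 genes above the low-value limit, replicate 3 was the highest of its group for 27 in adult sham, 22 in adult contralateral and 30 in adult SNI. Adult contralateral replicate 1 was the lowest of all 16 arrays for 13. Skeletal muscle genes had a mean of 12.48 in adult sham replicate 3 and 5.10 in adult sham replicate 2, and their part in this order was not tested.

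The comparison of adult SNI with its controls asked whether injury changed collagen mRNA in adults. None of the 41 collagen genes passed in limma: 0 against sham (0.48% of all Affy_IDs), 0 against the contralateral side (1.03%) and 0 against the mean of both (1.28%). At an unadjusted p under 0.05 there were 0, 6 and 2, where 7.33%, 9.83% and 10.0% of all Affy_IDs had such a p. The injury itself was visible in the same arrays, where all 8 neuronal injury markers were higher in adult SNI than in both controls together. The median log2 difference of the collagens was 0.08 against sham, 0.31 against the contralateral side and 0.13 against both, and over all Affy_IDs it was -0.03 against both.

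All 6 genes at an unadjusted p under 0.05 had higher values in SNI than in contralateral ganglia. Col6a2, a chain of type VI collagen, had 8.49, 9.40 and 10.06 in adult SNI, 7.05, 7.78 and 8.37 in contralateral and 8.64, 7.93 and 9.84 in sham arrays. All SNI arrays lay above the contralateral ones, within or above the range of sham. The log2 difference from contralateral was 1.58 (SE 0.56, adjusted p = 0.32), and from sham it was 0.51. Col6a6 had 1.08 (SE 0.47, adjusted p = 0.473).

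The multiplexins had the same order. Col18a1 had 6.98, 7.43 and 7.98 in SNI, 5.82, 6.84 and 6.68 in contralateral and 6.63, 6.64 and 7.71 in sham arrays. The log2 difference from contralateral was 1.02 (SE 0.36, adjusted p = 0.322). Col15a1 had 0.91 (SE 0.39, adjusted p = 0.465), Col16a1 0.63 (SE 0.21, adjusted p = 0.285) and Col3a1 0.82 (SE 0.37, adjusted p = 0.499). Col1a1 and Col1a2 had 1.00 and 0.78, with adjusted p of 0.63 and 0.562. Within pairs of the same replicate number, SNI minus contralateral was 1.44, 1.62 and 1.69 for Col6a2, 1.14, 1.04 and 1.34 for Col6a1 and 0.57, 0.66 and 0.67 for Col16a1. With the replicate number as a block over all groups of both ages, 0 collagen genes passed in limma, and 6 had an unadjusted p under 0.05. Deviations from the group mean correlated less between same-numbered adult sham and contralateral arrays (0.057, 0.171 and 0.118) than within these pairs (0.449, 0.445 and 0.362). A block on the adult contralateral and SNI pairs alone was not fitted, so the 0 is not a test within pairs.

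For 13 genes all adult SNI arrays lay above all contralateral arrays, where 8.24% of all Affy_IDs did, and for 1 (Col23a1) all lay below, against 7.08%. For 0 genes did they lie above all 6 control arrays (3.17% of all Affy_IDs), and for 0 below them (2.58%). Matched by replicate number, SNI was higher than contralateral in all 3 pairs for 18 of the 41 genes, where 16.5% of all Affy_IDs were, and lower for 7, where 33.1% were. The contralateral side itself had lower values than sham, with a median of -0.31 over the 41 genes. None passed in that comparison in limma (0.0% of all Affy_IDs), and 0 had an unadjusted p under 0.05 (2.01%).

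**Figure D4:**
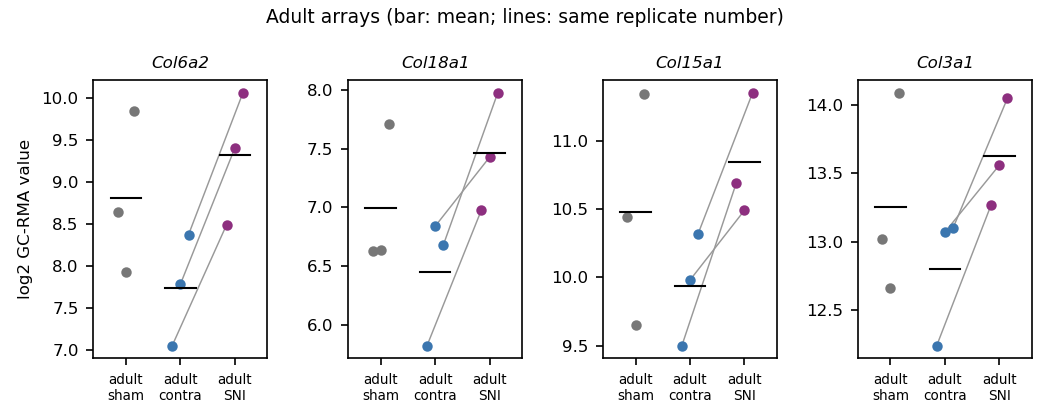
Log2 GC-RMA values (vertical axes, which do not start at 0) of Col6a2, Col18a1, Col15a1 and Col3a1 in the 9 adult arrays by group (horizontal axes). Points are arrays, bars are group means and grey lines join contralateral and SNI arrays with the same replicate number; SNI arrays lie above contralateral ones and overlap with sham.

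Other genes of connective tissue had higher values in adult SNI, and their part in the collagen values was not tested. Of 7 small proteoglycans 1 was higher than in the contralateral side, with a median of 1.13, and 0 passed against both controls together in limma (4 at an unadjusted p under 0.05). Of 10 fibroblast markers 0 passed against both controls, 7 had an unadjusted p under 0.05 and the median was 0.74; their mean was 9.22 to 9.73 in SNI and 8.11 to 9.46 in control arrays. Of 6 meninges markers 1 was higher, Crabp2 (log2 difference 1.76). Of 8 macrophage markers 2 were higher, Cd68 (log2 difference 2.16) and Mrc1 (log2 difference 1.79). Their mean was 7.35 to 8.43 in SNI and 5.43 to 6.86 in control arrays.

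Between young SNI and both young controls no neuronal injury marker passed in limma. Their log2 differences ran from -0.35 (Sox11) to 1.93 (Vip), and the lowest adjusted p was 0.709 (Reg3b). In young rats Col11a2, which encodes a chain of type XI collagen, was the 1 collagen gene that differed. It had 5.01 and 5.53 in young SNI arrays, 2.83, 3.09 and 2.61 in young sham, and 3.14 and 2.65 in young contralateral arrays. In the adult arrays it stayed between 2.37 and 2.64, at the bottom of the scale. Both young SNI arrays were thus above the other 14. The log2 difference was 2.43 from sham (SE 0.18, adjusted p = 0.000656; 0.0161% of all Affy_IDs passed), 2.38 from contralateral (SE 0.20, adjusted p = 0.00363; 0.00966%) and 2.40 from both (SE 0.17, adjusted p = 0.00048; 0.0226%). The size is not exact, since the controls were near the lowest values of the arrays. The cycling cell marker Ttk, also near the bottom of the scale, had the same order. It had 3.72 and 3.66 in young SNI arrays and 2.47 to 2.79 in the others (log2 difference from both 1.035, limma adjusted p = 0.00048). The other cycling cell markers did not pass there.

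The adult response of Col11a2 minus the young response was -2.41 (SE 0.22, adjusted p = 0.00216; 0.0966% of all Affy_IDs passed). Its call rests on the spread shared by all 6 groups: with each age fitted on its own, adjusted p was 0.979 from sham, 1.0 from contralateral and 0.972 from both, with 0 collagen genes called in limma and, for Col11a2, an unadjusted p of 0.000155, 0.000271 and 0.000109. It passed without any 1 array of the groups with 3 arrays. Leaving out a young SNI array leaves 1 in the group. The log2 difference of Col11a2 from both controls was then 2.66 without replicate 1 and 2.14 without replicate 2.

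Both young SNI arrays were those with markers of other tissues, and the part of these in Col11a2 was not tested. Bone genes were high in replicate 1, where Bglap (osteocalcin) had 11.46 and Ibsp 10.45, while replicate 2 had 2.54 and 5.47. Central nervous tissue genes were high in replicate 2, where Mobp, a protein of oligodendrocyte myelin, had 14.13, while replicate 1 had 2.74. Over 11 cartilage and bone markers the mean was 6.43 in replicate 1 and 4.09 in replicate 2, and in young controls it was 4.72 to 5.02. Of the cartilage markers, Cnmd had 12.36 and 10.94, Hapln1 7.47 and 6.82 and Comp 6.66 and 4.83, with Acan and Matn1 at 2.67 or below in both.

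Other collagens followed 1 of these arrays. Col10a1, known from the growth plate, had 9.18 in young SNI replicate 1 and 2.09 in replicate 2, with 3.77, 3.21 and 3.35 in young sham and 3.63 and 5.97 in young contralateral arrays. The highest and the lowest value of all 16 arrays were in the same group. The log2 difference from both controls was 1.51 (adjusted p = 0.963), 5.06 without replicate 2 and -2.03 without replicate 1. Col11a1 was also highest in replicate 1, at 9.53, against at most 7.81 in the other arrays.

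Col25a1, a transmembrane collagen made by neurons, had 5.64 in replicate 1 and 7.75 in replicate 2, above young controls at 4.54 to 5.38. Its log2 difference was 1.52 (SE 0.58, adjusted p = 0.626). Col23a1, another transmembrane collagen, had 5.01 and 4.33, below young controls at 5.38 to 5.47 (log2 difference -0.76, SE 0.15, adjusted p = 0.626). Col24a1 had 5.77 and 4.35 (log2 difference -0.80, adjusted p = 0.632). With a young SNI array left out the group held 1 array, so no calls are read from those fits. The log2 difference of Col25a1 was 2.58 without replicate 1 and 0.47 without replicate 2. That of Col23a1 was -1.10 and -0.42.

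**Figure D5:**
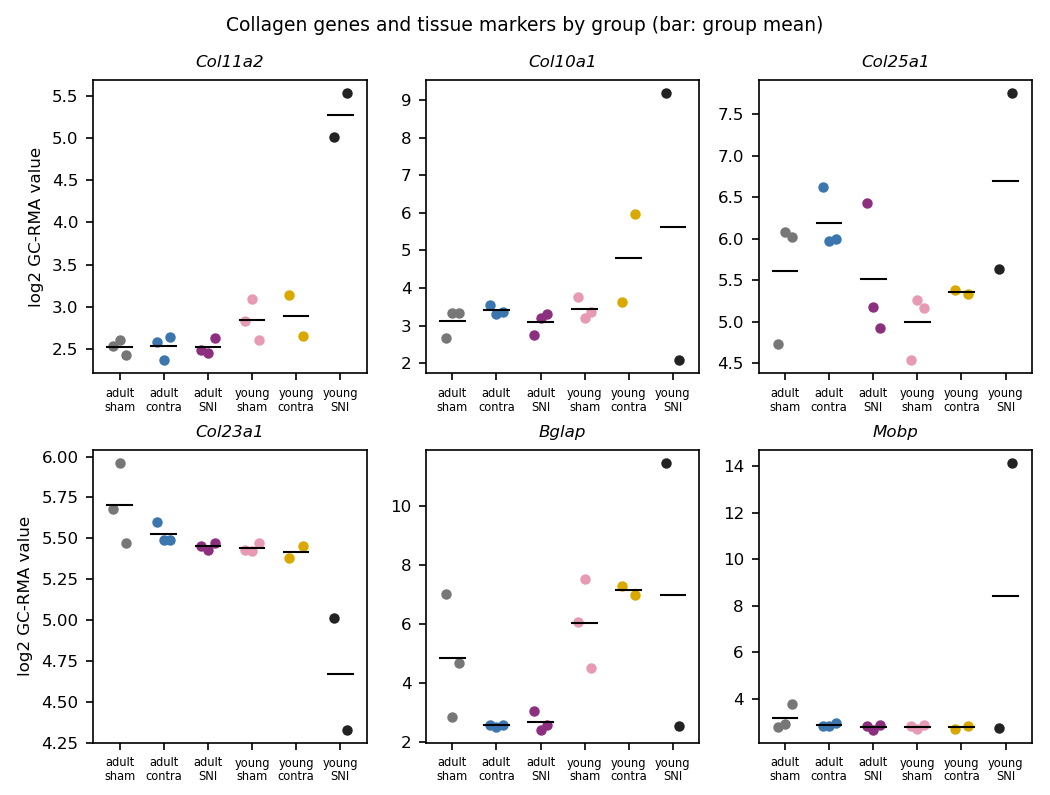
Log2 GC-RMA values (vertical axes, which do not start at 0) of Col11a2, Col10a1, Col25a1 and Col23a1, of the bone gene Bglap and of the myelin gene Mobp in each array by group (horizontal axes); points are arrays and bars group means. Col11a2 is high in both young SNI arrays, Col10a1 and Bglap are high in replicate 1 and Col25a1 and Mobp in replicate 2.

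The fibrillar genes most studied in scar, Col1a1, Col1a2 and Col3a1, had log2 differences of 0.01, 0.04 and -0.08 between young SNI and both controls, with adjusted p of 0.998, 0.993 and 0.991. These means join unlike arrays. Col1a1 had 14.09 in replicate 1 and 12.56 in replicate 2, above and below young controls at 13.03 to 13.56. Col1a2 had 14.18 and 13.19, above and below young controls at 13.32 to 13.94. Col3a1 had 14.43 and 13.86, with young controls at 13.90 to 14.50. All young SNI arrays were above all young controls for Col11a2 and Col25a1 (1.08% of all Affy_IDs) and below them for Col23a1 and Col5a3 (1.92%). Over the 41 genes the median was -0.07, against 0.01 over all Affy_IDs. Young contralateral and sham arrays differed in 0 collagen genes in limma, with 0 at an unadjusted p under 0.05 (2.25% of all Affy_IDs).

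The genes outside the collagens whose values over the 16 arrays were most like the mean of the type I, III and V genes were named as a description. They were Nid2, Lama2, Mfap2, Lamc1 and Lamb1, with Pearson correlations of 0.972, 0.972, 0.971, 0.970 and 0.970. Nid2 encodes nidogen 2, Lama2, Lamc1 and Lamb1 encode laminin chains, and Mfap2 encodes a microfibril protein. Correlations over the 16 arrays include the difference between ages. Within ages they were 0.928 to 0.980 over 9 adult arrays and 0.761 to 0.921 over 7 young arrays.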

How the data were processed

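Messenger RNA of pooled rat DRG was measured on 16 arrays in 6 groups. The deposited log2 values were made by the authors with GC-RMA, which corrects probe intensities for background by GC content, normalises between arrays and summarises the probes of each Affy_ID. They were rounded to 2 decimals, and the authors had removed 2 arrays as outliers. The number of pools limits the precision, and p-values measure the spread between pools. Which software versions the authors ran is not given in the sources used.

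The 31042 Affy_IDs other than 57 controls were fitted in limma 3.58.1 (R 4.3.3), with a mean for each of the 6 groups and moderated variances. No filter on low values was used. The p of a comparison was adjusted by Benjamini-Hochberg over all Affy_IDs, with a threshold of 0.05. All adjusted p in the text are from limma. The platform annotation gave 1 gene symbol for 20826 Affy_IDs, several for 436 and none for 9780, and all 41 collagen symbols were unchanged in RefSeq.

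Every collagen gene was counted. Named with values were those that passed in any comparison, those of smallest p in each structural class, Col1a1, Col1a2, Col3a1, Col4a1, Col4a2 and Col11a2, and genes of the collagen lists that passed. Other genes, such as the markers of single arrays, were named after their values were seen. The members, lists, tests and alternatives were chosen with earlier results of these data known.

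Alternatives were the replicate number as a block, each age fitted on its own, an intensity trend, a robust prior, a filter on low values (log2 over 4 on 2 or more arrays), array weights, quantile normalization, the mean of all Affy_IDs of a gene, sham or contralateral arrays alone, and leaving out each array. SNI groups in place of controls, and fits without both young SNI arrays or without 3 young controls, were added after seeing the data. Deviations from the group mean of same-numbered adult contralateral and SNI arrays correlated across Affy_IDs (0.449, 0.445 and 0.362), so these numbers were taken as pairs from the data and not from the labels. Other groups did not meet this, but the block on the replicate number was fitted over all groups. The fit was tested on simulated data. Python 3.11.15 with pandas 2.3.3, numpy 2.4.6 and matplotlib 3.10.9 made tables and figures.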

Additional observations from a re-analysis of the deposited data

Results flagged for a closer look

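The response of Col11a2 to SNI differed between the ages, with an adult response minus young response of -2.41 on the log2 scale (limma, adjusted p = 0.00216). Values of all 3 adult SNI arrays were within those of the adult controls, and both young SNI arrays were above all young controls. All adult values, at 2.37 to 2.64, were at the bottom of the scale. With each age fitted on its own, the young difference from both controls did not pass (limma, adjusted p = 0.972). Neuronal injury markers did not pass between young SNI and both young controls either (limma, lowest adjusted p = 0.709, for Reg3b). Both young SNI arrays also carried markers of other tissues, whose part in the Col11a2 values was not tested.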

How the results depend on the processing

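The 0 calls in adult SNI, and between the contralateral and sham groups of each age, were 0 under each alternative run. Col11a2 in young SNI was called in each but the fit of each age on its own, where the calls fell from 1 to 0 against sham, contralateral and both. Counts above 1 for young SNI or the difference in response came only from fits without young SNI replicate 1 or 2. These fits leave 1 array in that group, so no calls are read from them. Leaving out 1 array gave 1 to 4 calls against sham, 1 to 5 against contralateral, 1 to 4 against both, and 1 to 3 for the difference in response. For age the 12 calls became 2 to 17 when 1 array was left out, 1 in sham arrays alone, 0 in contralateral arrays alone, 3 in SNI arrays and 1 without the 3 young controls highest in injury genes. The causes of these changes were not tested. The last 4 use fewer arrays, and in the last the young controls that remain also differ in injury genes and Xist. With the replicate number as a block there were 12 calls for age, 11 of them shared (Col9a2 lost, Col11a1 gained), and the block changed no other count. Array weights gave 18 calls and the filter on low values 16. Shares of all Affy_IDs under these alternatives are not reported here. Col10a1 in young SNI went from 1.51 to 5.06 without young SNI replicate 2 and turned to -2.03 without replicate 1. Of 749 alternatives of 30 gene values, 636 kept direction and side of the threshold, 83 lost and 29 gained the threshold, and 1 turned. Values that had not passed at first counted as kept when they again did not pass. Among the 12 age calls, the alternatives that lost the threshold ran from 1 for Col5a1 and Col9a3 to 17 for Col9a2.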
